A study of Mus musculus with 9 samples.

Results

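The 10 genes described here encode SR splicing factors and the kinases that phosphorylate them: Srsf1, Srsf2, Srsf3, Srsf5, Srsf6, Srsf7, Tra2a, Tra2b, Clk1 and Clk4. They were picked by gene symbol from the deposited table of counts, and all 10 were found among 55450 gene identifiers and passed the filter on low counts, which left 14246 genes. RNA was measured in IMM cells, an established line of immortalized mouse macrophages of genotype WT, at 60 min and at 30 min of lipopolysaccharide (LPS, a component of the outer membrane of Gram-negative bacteria, at 100 ng/mL), against untreated cells at 0 min. There were 3 libraries per time and 9 in all, made from total RNA after removal of ribosomal RNA, so that unspliced RNA can be present. How far the counts per gene include it was not tested. All groups share the line and genotype, and every result concerns 1 immortalized line. No library without LPS at 30 or 60 min was analysed here, so LPS, handling and time cannot be told apart.

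SR proteins join an RNA-binding domain to a tail rich in arginine and serine, the RS domain. They bind enhancer sequences in exons and recruit the splicing machinery, and several also act in mRNA export and translation. Kinases of the SRPK family phosphorylate the RS domain in the cytoplasm and thereby promote import into the nucleus, and kinases of the CLK family phosphorylate it further in the nucleus, where this releases SR proteins from speckles. Many SR genes hold a poison exon, whose inclusion brings in an early stop codon and sends the mRNA to nonsense-mediated decay. Clk1 and Clk4 pre-mRNAs can be held in the nucleus with introns unspliced.

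Transcript models of GENCODE M21 (build GRCm38, mm10) are marked by class. The marks for decay targets and retained introns do not show a poison exon or holding in the nucleus, and neither was examined. All 10 had at least 1 model marked as a target of nonsense-mediated decay and at least 1 marked as holding a retained intron (100% of 10), against 23.9% of the 11313 tested protein-coding genes with both. Outside the 10, Srsf4, Srsf11, Clk2, Clk3, Srpk1 and Srpk2 also had both kinds. Srsf9 had only a decay target, and Srsf10 had neither. The median number of models per gene was 8.5 over the 10 and 5 over the tested protein-coding genes. Clk4 had 14 models, 3 of them decay targets and 7 with a retained intron. Clk1 had 13 models, 2 of them decay targets and 7 with a retained intron. By the same annotation Srsf1 (88047373 to 88053755, plus strand), Srsf2 (116849901 to 116853094, minus) and Clk4 lie on chromosome 11, and Srsf3 (29032628 to 29043373, plus) and Srsf7 (80200080 to 80207307, minus) lie on chromosome 17. Srsf5 is on chromosome 12 (80945504 to 80950507, plus), Srsf6 on chromosome 2 (162931528 to 162937121, plus), Tra2a on chromosome 6 (49243924 to 49264033, minus), Tra2b on chromosome 16 (22244549 to 22266005, minus) and Clk1 on chromosome 1. The counts are summed per gene, so no value below tells a productive from an unproductive transcript.

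Promoter sequences are shown for 4 of the 5 genes that rose by 60 min (Clk4, Tra2a, Srsf6 and Srsf7) and for Tra2b, whose level moved least of the 10 at 60 min. They come from RefSeq on GRCm38.p6, in which 9 of the 10 genes matched an entry and Clk1 did not. Each window runs 5′ to 3′ on the gene's own strand from 250 bases before to 50 bases after the transcript start. Capitals mark matches, on either strand, to the GC box (GGGCGG), the CCAAT box (CCAAT), the ETS motif (CCGGAA) and the cAMP response element (TGACGTCA). Different motifs do not overlap in the 5 windows. The windows are Clk4 chr11:51262864-51263163 on the plus strand, Tra2a chr6:49264003-49264302 on the minus strand, Srsf6 chr2:162931258-162931557 on the plus strand, Srsf7 chr17:80207256-80207555 on the minus strand and Tra2b chr16:22265956-22266255 on the minus strand.
Clk4: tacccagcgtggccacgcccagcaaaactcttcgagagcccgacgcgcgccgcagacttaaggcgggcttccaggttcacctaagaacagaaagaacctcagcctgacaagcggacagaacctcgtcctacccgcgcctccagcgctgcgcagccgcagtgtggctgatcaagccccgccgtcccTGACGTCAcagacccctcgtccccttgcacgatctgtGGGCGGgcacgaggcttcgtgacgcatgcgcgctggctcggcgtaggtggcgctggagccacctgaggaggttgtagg
Tra2a: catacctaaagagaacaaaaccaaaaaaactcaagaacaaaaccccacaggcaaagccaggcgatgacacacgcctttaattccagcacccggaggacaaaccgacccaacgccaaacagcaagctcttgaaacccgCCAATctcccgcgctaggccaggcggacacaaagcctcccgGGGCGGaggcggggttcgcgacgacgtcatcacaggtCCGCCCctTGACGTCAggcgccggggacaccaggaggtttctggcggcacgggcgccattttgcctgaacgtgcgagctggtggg
Srsf6: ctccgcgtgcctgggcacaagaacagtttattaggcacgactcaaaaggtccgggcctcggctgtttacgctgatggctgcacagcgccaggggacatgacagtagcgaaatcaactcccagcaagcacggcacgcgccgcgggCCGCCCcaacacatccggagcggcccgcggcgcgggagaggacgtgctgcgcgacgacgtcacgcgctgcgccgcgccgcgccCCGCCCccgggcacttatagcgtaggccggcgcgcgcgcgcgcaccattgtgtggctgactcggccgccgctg
Srsf7: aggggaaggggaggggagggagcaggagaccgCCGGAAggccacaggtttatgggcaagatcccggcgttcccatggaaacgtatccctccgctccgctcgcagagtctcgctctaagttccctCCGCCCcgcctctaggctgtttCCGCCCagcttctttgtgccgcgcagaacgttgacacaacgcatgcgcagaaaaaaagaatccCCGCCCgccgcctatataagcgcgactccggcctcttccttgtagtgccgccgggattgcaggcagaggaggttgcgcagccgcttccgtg
Tra2b: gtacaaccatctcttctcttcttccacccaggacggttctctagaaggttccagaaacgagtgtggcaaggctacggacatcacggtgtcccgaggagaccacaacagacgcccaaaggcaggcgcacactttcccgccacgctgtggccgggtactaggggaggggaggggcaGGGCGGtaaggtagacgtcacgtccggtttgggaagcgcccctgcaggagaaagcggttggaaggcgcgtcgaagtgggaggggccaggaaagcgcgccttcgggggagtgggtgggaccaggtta

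The windows were rich in G and C. The median G and C content was 62.7% over the 9 windows and 52.7% over all 32851 RefSeq windows, and the median number of CpG dinucleotides was 28 over the 9 and 7 over all. A GC box was present in 8 of the 9, against 35.7% of all windows. CCAAT was present in 4 (37.4% of all), CCGGAA in 4 (14.9% of all) and TATAAA in 2, Srsf2 and Srsf3 (13.6% of all). The full cAMP response element TGACGTCA, a binding sequence of the CREB and ATF transcription factors, was present in Clk4 and Tra2a, against 1.79% of all windows. It lay 65 bases before the RefSeq start in Clk4 and 27 bases before that in Tra2a. The Clk4 window lies inside the gene as GENCODE M21 places it, from 51261730, so its RefSeq start is not the most upstream one. No match was found in the 9 windows for AP-1 TGANTCA (7.81% of all), the E-box CACGTG (7.15%), the NF-kB consensus (8.46%) or the CArG box of the serum response element (1.63%). A match describes these letters and shows no binding. The shares of all windows come from every RefSeq window, whether or not its gene was tested here. The 9 windows also differed from these in composition, as given above. No comparison was made with windows of tested genes or of like composition. Whether any motif is more frequent in the 9 than in such windows was not tested.

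The libraries held 26867428 to 30402308 counts, and levels are in CPM, a gene's counts for every 1000000 counts of its library, with the total adjusted by edgeR's TMM factors of 0.97 to 1.03. A count of 10, near the filter, was worth 0.324 to 0.367 CPM. Clk4 had the fewest counts of the 10, with 1125 to 1498 per library, and Srsf1 had 12889 to 16047. Macrophage markers were present (10 of 10, summed level by plain totals 2237 to 2324 CPM at 60 min and 2208 to 2234 CPM at 30 min, against 2073 to 2140 CPM at 0 min). Their means ran from 16.9 CPM for Mertk to 627.5 CPM for Csf1r, both at 60 min. Single markers moved both ways: Cd14 averaged 132.7 CPM at 60 min against 22.8 CPM at 0 min, and Fcgr1 87.4 CPM against 103.5 CPM. No marker of T cells, B cells, neutrophils, dendritic cells, fibroblasts, epithelium or mast cells exceeded a mean of 8.87 CPM, and the endothelial list reached 13.5 CPM through Vwf alone, with its other 4 markers at most 0.801 CPM. The summed dendritic cell list was 13.7 to 15.4 CPM at 60 min, against 17.1 to 18.2 CPM at 0 min, and the part of this difference in the results was not tested. The LPS response was present: Tnf averaged 560 ± 37.5 CPM at 60 min and 341 ± 91.5 CPM at 30 min, against 47.5 ± 4.27 CPM at 0 min (SD, n = 3 per time). In bulk RNA, fewer cells of a kind and less RNA per cell cannot be told apart.

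Set against 0 min, the 60 min libraries show which of these genes had changed after an hour of LPS. Of the 10 genes, 5 rose and 0 fell (edgeR quasi-likelihood test, Benjamini-Hochberg adjusted p under 0.05, two-sided), against 13.3% of all tested genes called higher and 11.7% called lower (25.0% in either direction). The 5 were Clk1, Clk4, Srsf6, Srsf7 and Tra2a, and their rises were 14.4% to 19.3%. All 10 log2 changes were positive, from 0.04 to 0.25 with a median of 0.17, where the median of all tested genes was 0.001. These 10 genes were chosen with earlier results of these data known. In 5 of the 10 genes every 60 min library lay above every 0 min library, which held for 19.6% of all tested genes, and none had the reverse, which held for 18.7%. The number called depended on single libraries and on the scaling. It was 8 without 0 min replicate 2 or without 60 min replicate 3, 3 without 60 min replicate 1, and 3 when library totals were the only scaling. All genes called higher numbered 1313 with library totals and 1454 to 1848 with a library left out (1891 in the main fit). DESeq2 and limma-voom each called 6 of the 10 higher and 0 lower, and their counts over all genes are not reported here.

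At 30 min none of the 10 was called against 0 min, by edgeR, DESeq2 or limma-voom, where 4.84% of all genes were called higher and 3.35% lower (8.18% in either direction). At an unadjusted p under 0.05 each of the 3 tools had 2 higher and 0 lower. The log2 changes ran from -0.06 to 0.12 with a median of 0.03, and 8 of 10 were positive. In 1 gene, Clk1, all 30 min libraries lay above all 0 min libraries, which held for 14.1% of all genes. From 30 to 60 min, the test of the difference between the changes at the later and the earlier time, 5 were called higher and 0 lower, against 8.87% and 7.65% of all genes. These 5 were Clk1, Clk4, Srsf5, Srsf6 and Tra2a. In 7 of 10 genes all 60 min libraries lay above all 30 min libraries, which held for 17.1% of all genes. The number called from 30 to 60 min dropped to 1, Clk4, when 30 min replicate 2 or 3 or else 60 min replicate 1 was left out, to 2 without 60 min replicate 2, and to 1 with library totals as the only scaling. It was 3 with the replicate number as a block. All genes called higher from 30 to 60 min numbered 1005 with library totals and 921 to 1338 with a library left out (1263 in the main fit).

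**Figure D1:**
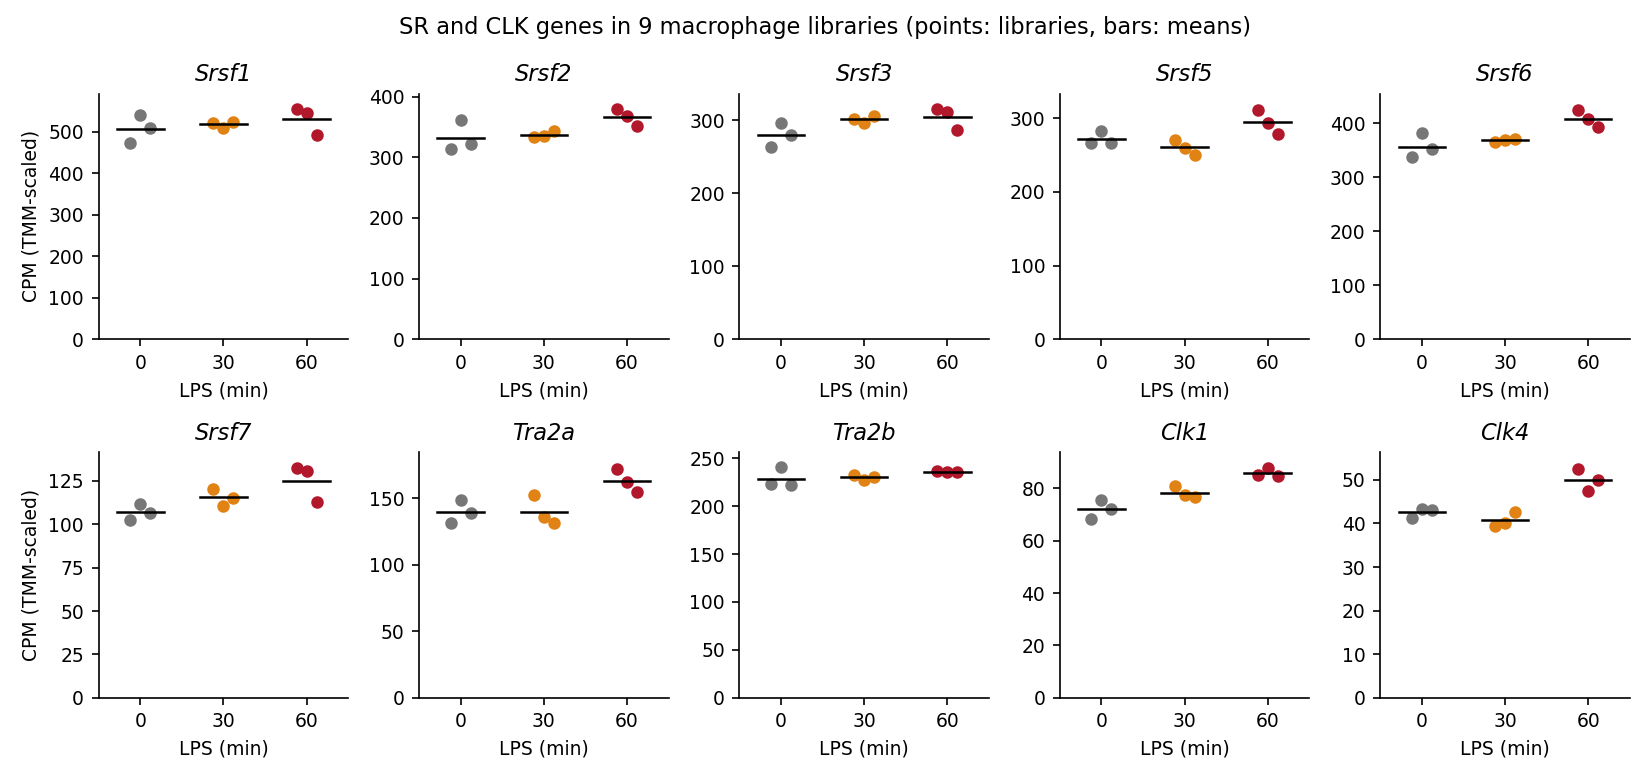
Level of each of the 10 genes (CPM scaled by TMM factors, axes starting at 0) in the 9 libraries at 0, 30 and 60 min of LPS. Points are libraries and bars are means of 3; Clk1 and Clk4 are highest in the 3 libraries at 60 min (84.6 to 87.5 CPM and 47.5 to 52.5 CPM), while Tra2b stays between 222 and 241 CPM.

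**Figure D2:**
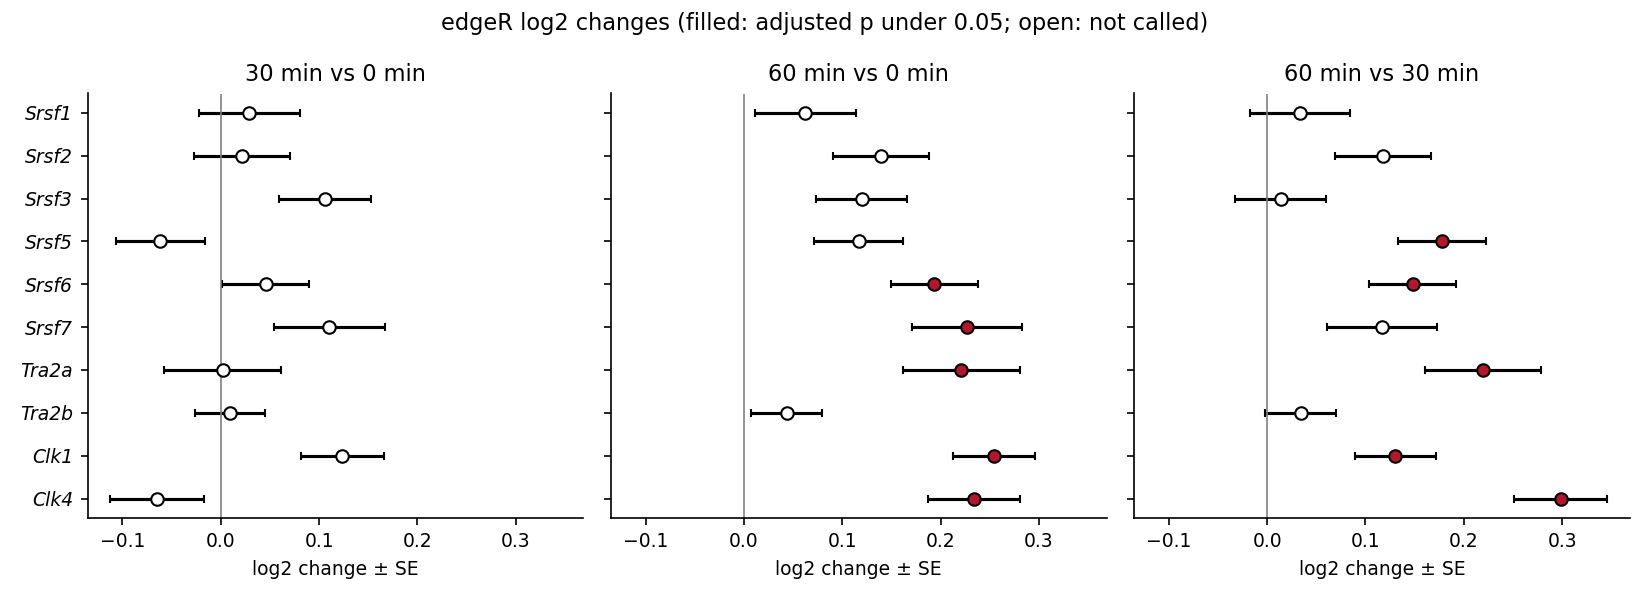
Fitted log2 change of each gene in the 3 comparisons, with bars of 1 SE. Filled points passed an adjusted p under 0.05; none is filled for 30 min against 0 min, and 5 are filled in each of the other comparisons.

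Among the kinases, Clk1 and Clk4 both rose by 60 min. Clk1 is a dual-specificity kinase of the nucleus that phosphorylates RS domains. The gene Clk1 (ENSMUSG00000026034.17, chromosome 1, 58410189 to 58424066, minus strand) had 68.1, 75.6 and 71.9 CPM at 0 min, 80.8, 77.4 and 76.8 CPM at 30 min, and 85.1, 87.5 and 84.6 CPM at 60 min. The 3 sets of libraries did not overlap and lay in the order of time. At 60 min Clk1 was 19.3% above 0 min (log2 change 0.25, SE 0.042, 95% interval 0.17 to 0.34, adjusted p = 0.000395), and this call held in each of the 17 alternatives tried. At 30 min the log2 change was 0.12 (95% interval 0.03 to 0.21, adjusted p = 0.0927), and it was called without 0 min replicate 2 (0.16, adjusted p = 0.0367). Between 30 and 60 min Clk1 rose by a log2 change of 0.13 (adjusted p = 0.0454), a call lost in 9 of the 17 alternatives (highest adjusted p = 0.166).

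Clk4, a close relative of Clk1, had 41.3, 43.3 and 43.0 CPM at 0 min, 39.4, 40.1 and 42.6 CPM at 30 min, and 52.5, 47.5 and 50.1 CPM at 60 min. Its 60 min libraries lay above all others, and its 30 min libraries overlapped those at 0 min. The gene Clk4 (ENSMUSG00000020385.16, chromosome 11, 51261730 to 51281766, plus strand) was 17.6% higher at 60 min than at 0 min (log2 change 0.23, SE 0.047, adjusted p = 0.00197). It was 23.0% higher at 60 min than at 30 min (log2 change 0.30, SE 0.047, adjusted p = 0.000477). At 30 min its log2 change against 0 min was -0.06 (95% interval -0.17 to 0.04, adjusted p = 0.484). Both calls of Clk4 held in all 17 alternatives, and Clk4 was the only one of the 10 genes whose call from 30 to 60 min did so. A small gene, Gm25082, shares 59 bases of exon with Clk4 on the same strand and had 1 to 10 counts per library.

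The other kinases of the family moved in opposite directions. Clk2, another nuclear kinase of the family, had 53.5, 50.8 and 52.4 CPM at 0 min, 42.6, 44.3 and 42.0 CPM at 30 min, and 46.2, 42.5 and 44.5 CPM at 60 min. All its LPS libraries lay below all its untreated ones. Clk2 fell by 0.28 on the log2 scale at 30 min (SE 0.043, adjusted p = 0.000607) and by 0.23 at 60 min (SE 0.042, adjusted p = 0.000892), and the log2 change from 30 to 60 min was 0.05 (adjusted p = 0.542). Clk3 averaged 53.9 ± 1.68 CPM at 0 min, 52.6 ± 0.814 CPM at 30 min and 58.9 ± 1.69 CPM at 60 min. It rose at 60 min (log2 change 0.13, adjusted p = 0.0244) and from 30 to 60 min (0.16, adjusted p = 0.0089). The call at 60 min was lost with library totals as the only scaling (adjusted p = 0.259), with DESeq2 (0.0702), when no gene was filtered out (0.0586), and when 0 min replicate 2 or 3 or 60 min replicate 1 or 3 was left out (0.0544 to 0.105).

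Srpk1 and Srpk2 encode the cytoplasmic SR protein kinases. Srpk1 averaged 224 ± 9.17 CPM at 0 min, 216 ± 1.85 CPM at 30 min and 219 ± 2.79 CPM at 60 min and was not called in any of the 3 comparisons. Srpk2 averaged 121 ± 2.11, 124 ± 1.26 and 113 ± 3.56 CPM at 0, 30 and 60 min. It fell from 30 to 60 min (log2 change -0.13, adjusted p = 0.0165), a call lost without 30 min replicate 2 or 60 min replicate 1 or 2 (adjusted p 0.0667 to 0.0862). Against 0 min its log2 change at 60 min was -0.09 (adjusted p = 0.0597), called with library totals as the only scaling (-0.16, adjusted p = 0.00217), with a stricter minimum count of 50 (-0.10, 0.0448), and once 60 min replicate 3 was left out (-0.13, 0.0198).

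Within a library the ratios of Clk1 and Clk4 to Clk2 moved, while that of Clk1 to Clk4 overlapped between 0 and 60 min. These ratios were chosen after the values were seen and carry no test. The ratio of Clk1 to Clk2 counts was 1.27, 1.49 and 1.37 in the 0 min libraries, 1.90, 1.75 and 1.83 at 30 min and 1.84, 2.06 and 1.90 at 60 min. The ratio of Clk4 to Clk2 was 0.771, 0.853 and 0.822 at 0 min, 0.923, 0.905 and 1.01 at 30 min and 1.14, 1.12 and 1.13 at 60 min. Neither ratio to Clk2 overlapped between the untreated and the LPS libraries. The ratio of Clk1 to Clk4 was 1.65, 1.75 and 1.67 at 0 min and 2.05, 1.93 and 1.80 at 30 min. At 60 min it was 1.62, 1.84 and 1.69. These ratios do not depend on library scaling.

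**Figure D3:**
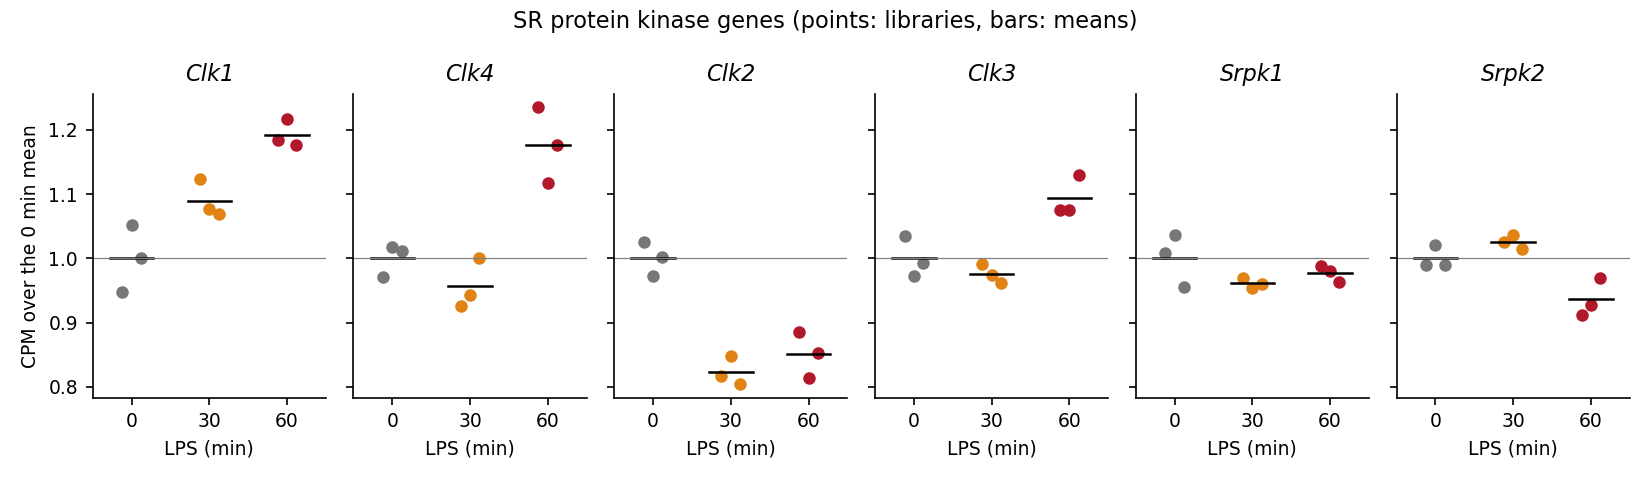
Level of 6 SR protein kinase genes in each library, divided by the gene's mean at 0 min (vertical axis, no unit, not starting at 0), at 0, 30 and 60 min of LPS. Points are libraries and bars are means of 3; Clk2 lies below 1 at both LPS times in all 6 libraries, while Clk1 and Clk4 lie above 1 in all 3 libraries at 60 min.

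Of the SR proteins proper, Srsf6 and Srsf7 rose by 60 min. Srsf6 (SRp55), a shuttling SR protein, had 337, 381 and 352 CPM at 0 min, 364, 369 and 371 CPM at 30 min, and 425, 407 and 392 CPM at 60 min. All 60 min libraries lay above all others, though 60 min replicate 3 was close to 0 min replicate 2. At 60 min Srsf6 was 14.4% higher than at 0 min (log2 change 0.19, SE 0.044, adjusted p = 0.00481), and the call was lost only with library totals as the only scaling (0.13, adjusted p = 0.0503). Between 30 and 60 min Srsf6 rose by 0.15 (adjusted p = 0.0335), a call lost in 7 of the 17 alternatives, among them with any 1 of the 30 min replicates or 60 min replicate 1 or 2 left out (0.0795 to 0.141).

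Srsf7 (9G8), which also serves as an adaptor for mRNA export, had 103, 111 and 107 CPM at 0 min, 120, 111 and 115 CPM at 30 min, and 132, 131 and 113 CPM at 60 min. Replicate 3 at 60 min lay close to the untreated libraries and the other two well above them. The gene was 17.0% higher at 60 min than at 0 min (log2 change 0.23, SE 0.056, adjusted p = 0.00821), a call lost without 60 min replicate 1 (0.18, adjusted p = 0.0511). At 30 min its log2 change was 0.11 (95% interval -0.01 to 0.23, adjusted p = 0.281), and from 30 to 60 min it was 0.12 (95% interval -0.004 to 0.24, adjusted p = 0.195). Without 60 min replicate 3 the log2 change from 30 to 60 min became 0.19 (adjusted p = 0.0115).

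Srsf3 (SRp20), the smallest SR protein and likewise an export adaptor, had 263, 297 and 280 CPM at 0 min, 302, 296 and 306 CPM at 30 min, and 315, 311 and 287 CPM at 60 min. Its groups overlapped at every pair of times. The log2 change was 0.11 at 30 min (95% interval 0.006 to 0.21, adjusted p = 0.201) and 0.12 at 60 min (95% interval 0.02 to 0.22, adjusted p = 0.0755), and it was 0.01 from 30 to 60 min (95% interval -0.09 to 0.11). The change at 60 min was called without 0 min replicate 2 (0.16, adjusted p = 0.0196) and without 60 min replicate 3 (0.15, adjusted p = 0.0241).

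Srsf5 (SRp40) rose from 30 to 60 min. It had 266, 282 and 266 CPM at 0 min, 271, 260 and 250 CPM at 30 min, and 311, 294 and 278 CPM at 60 min. The 60 min libraries lay above all 30 min libraries but 60 min replicate 3 fell among those at 0 min. Srsf5 was higher at 60 min than at 30 min (log2 change 0.18, SE 0.045, adjusted p = 0.0139), a call lost with library totals as the only scaling (0.14, adjusted p = 0.0531) and without 30 min replicate 2 or 3 or 60 min replicate 1 (0.0512 to 0.074). Against 0 min its log2 change was -0.06 at 30 min (adjusted p = 0.483) and 0.12 at 60 min (95% interval 0.02 to 0.21, adjusted p = 0.075). The log2 change at 60 min was called without 0 min replicate 2 (0.14, adjusted p = 0.0468) and without 60 min replicate 3 (0.15, adjusted p = 0.0231).

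Srsf2 (SC35), an SR protein that stays in the nucleus, had 313, 362 and 322 CPM at 0 min, 333, 335 and 343 CPM at 30 min, and 379, 368 and 351 CPM at 60 min. The 60 min libraries lay above the 30 min ones, and 0 min replicate 2 lay among those at 60 min. Its log2 change at 60 min was 0.14 (SE 0.049, 95% interval 0.04 to 0.24), with an adjusted p = 0.0501, just above the threshold. It was called with DESeq2 (adjusted p = 0.0228), with limma-voom (0.0416), without 0 min replicate 2 (0.20, adjusted p = 0.00182) and without 60 min replicate 3 (0.16, adjusted p = 0.0363). With no filter Srsf2, Srsf3 and Srsf5 were all called at 60 min (adjusted p = 0.00584, 0.0271 and 0.0337). Exons of Mfsd11 and Mettl23 on the other strand overlap those of Srsf2 by 288 and 460 bases. These genes had 1006 to 1336 and 141 to 195 counts per library, and how the counting used strand is not given in the sources used here.

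Srsf1 (SF2/ASF), the founding member of the family and the most abundant of the 10 in CPM, had 473, 540 and 510 CPM at 0 min, 521, 510 and 523 CPM at 30 min, and 555, 544 and 491 CPM at 60 min. The times overlapped throughout. No change was called for Srsf1: the log2 change at 60 min was 0.06 (95% interval -0.05 to 0.17, adjusted p = 0.425).

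Tra2a and Tra2b encode relatives of the Drosophila splicing regulator transformer 2 and bind GAA-rich enhancers in exons. Tra2a had 131, 149 and 139 CPM at 0 min, 153, 136 and 132 CPM at 30 min, and 172, 162 and 155 CPM at 60 min. Its 60 min libraries lay above all others, and the earlier times overlapped. Tra2a rose by 16.6% at 60 min (log2 change 0.22, SE 0.059, adjusted p = 0.0133). That call was lost with library totals as the only scaling (0.15, adjusted p = 0.0672) and without 0 min replicate 1 (0.0674) or 60 min replicate 1 (0.0735). The log2 change from 30 to 60 min was likewise 0.22 (adjusted p = 0.0198), lost with library totals as the only scaling (0.0519) and without 30 min replicate 2 or 3 or 60 min replicate 1 or 2 (0.0517 to 0.0989).

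Tra2b had 223, 241 and 222 CPM at 0 min, 232, 228 and 231 CPM at 30 min, and 236, 235 and 235 CPM at 60 min. Its log2 change at 60 min was 0.04 (95% interval -0.03 to 0.12, adjusted p = 0.426), and it was 0.009 at 30 min and 0.03 from 30 to 60 min (adjusted p = 0.921 and 0.602). With library totals as the only scaling all 3 were slightly negative (-0.02, -0.02 and -0.008). The ratio of Tra2a to Tra2b, chosen after the values were seen and given without a test, was 0.59, 0.617 and 0.628 at 0 min, 0.657, 0.597 and 0.571 at 30 min and 0.73, 0.69 and 0.657 at 60 min. Only 30 min replicate 1 of the earlier libraries reached the range of the 60 min ones.

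Per length of exon the SR genes were abundant and the kinases moderate. Averaged over all 9 libraries, the level per kilobase of all annotated exons was 117 CPM for Srsf2, 90.8 CPM for Srsf1, 78.5 CPM for Srsf6 and 69.0 CPM for Srsf5, which placed these 4 above 95.3% or more of the tested protein-coding genes. Srsf3 had 37.4, Srsf7 32.6, Tra2b 25.1 and Tra2a 21.3 CPM per kilobase. Clk1 had 9.67 and Clk4 7.66 CPM per kilobase, above 61.3% and 54.3% of those genes. The order of neighbours depended on the length used: with the mean transcript length Srsf1 stood above Srsf2, Srsf3 above Srsf5 and Tra2b above Srsf7, while Tra2a, Clk1 and Clk4 remained the lowest. Counts of Srsf3, Srsf5 and Tra2b were fractional in all 9 libraries, meaning that reads were shared with other loci, and those of the other 7 were whole.

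At 0 and 60 min the 10 genes ranked the libraries of a time alike, and at 30 min replicates 1 and 3 were each the highest for 5. At 0 min, replicate 2 was the highest of 3 for 10 of 10 genes and replicate 1 the lowest for 9. Among 4930 genes of at least 40 CPM, replicate 2 was highest for 43.8% and replicate 1 lowest for 32.8%. At 60 min, replicate 1 was highest for 9 and replicate 3 lowest for 9, against 33.02% and 37.02% of the abundant genes. The summed level of the 10 was 2663, 2587 and 2436 CPM in the 60 min libraries and 2417, 2361 and 2390 CPM in the 30 min libraries, against 2218, 2482 and 2313 CPM at 0 min. The sum in 0 min replicate 2 thus exceeded that in 60 min replicate 3. What set these libraries apart was not tested.

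**Figure D4:**
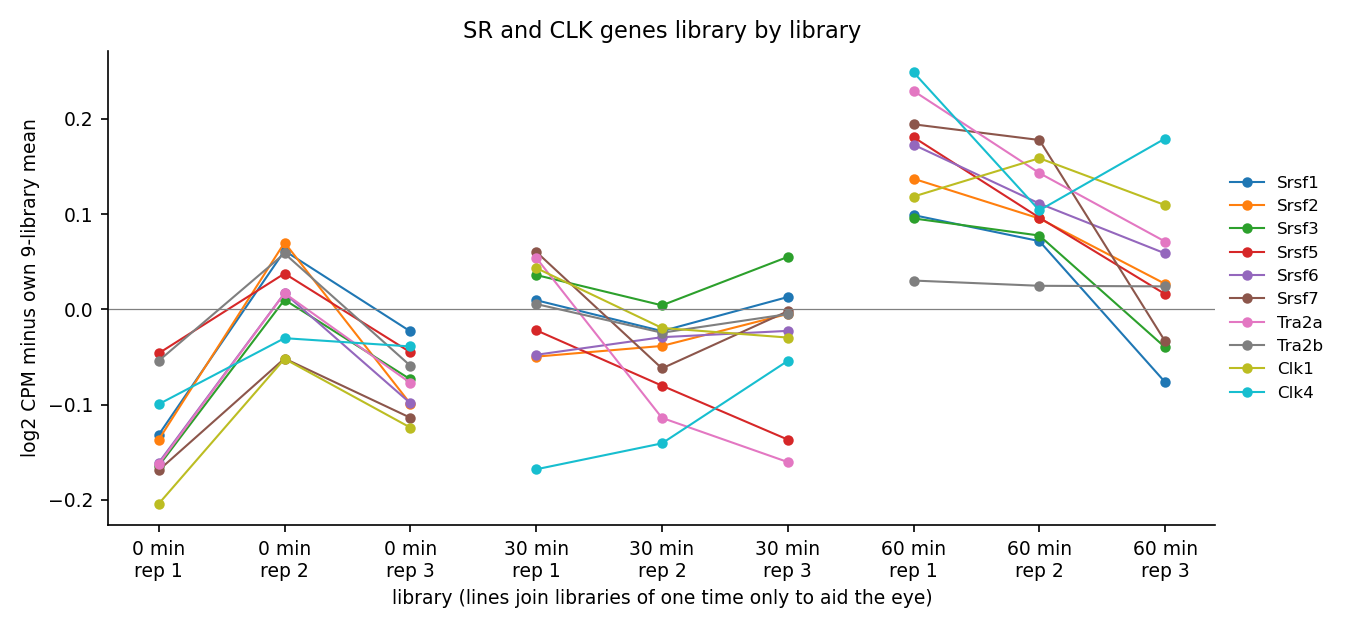
Log2 CPM of each gene minus its own mean over the 9 libraries (vertical axis), library by library (horizontal axis); lines join the 3 libraries of a time to aid the eye. At 0 min all 10 genes peak in replicate 2, and at 60 min 9 of 10 are lowest in replicate 3, the exception being Clk4.

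Likeness of pattern was measured as the Euclidean distance between log2 CPM values of the 9 libraries, each gene centred on its own mean, among 12296 genes of at least 1 CPM. Nearest to Clk1 were Dnajb4 (0.0869), Rbm39 (0.0953), Opa3 (0.0971), Ptbp2 (0.1) and Tatdn2 (0.106), where the median distance was 0.45. Dnajb4 encodes a chaperone of the DnaJ family, Rbm39 an SR-related splicing factor and Ptbp2 a splicing repressor named for polypyrimidine tracts. Among the 10 genes Srsf6 was nearest to Clk1 (0.153) and Clk4 farthest (0.321), with 20.4% of genes nearer than Clk4. Among the genes nearest to Srsf3 were Prdx3 (0.0572), H3f3a (0.0683), Il13ra1 (0.0718) and Slc35a3 (0.072), with a median distance of 0.378. Of the 10, Srsf1 was nearest to Srsf3 (0.104) and Clk4 again farthest (0.392), with 52.7% of genes nearer than Clk4. The distances are a description and carry no test.

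Of 5 SR genes listed outside the 10, 4 were tested and Srsf12 was below the filter on low counts. Of the 4, 1 rose at 60 min and from 30 to 60 min, Srsf11, against 13.3% and 8.87% of all genes called higher. None of the 4 fell, against 11.7% and 7.65% of all genes. At 30 min none was called, against 8.18% of all genes in either direction. Srsf11 (p54), an SR-related factor that contacts the U2 auxiliary factor, averaged 229 ± 9.2 CPM at 0 min, 228 ± 5.26 CPM at 30 min and 257 ± 2.65 CPM at 60 min. It rose at 60 min (log2 change 0.17, SE 0.036, adjusted p = 0.0031) and from 30 to 60 min (0.17, adjusted p = 0.00434). Srsf4, Srsf9 and Srsf10 were not called in any comparison, with log2 changes at 60 min of 0.01, -0.03 and 0.10. The median of the 4 at 60 min was 0.06, beside 0.17 for the 10 described and 0.001 for all genes. The 10 were chosen with earlier results of these data known, so their higher median cannot be told apart from that choice.

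Among 17 tested genes for kinases, phosphatases and importers acting on SR proteins, 4 rose and 2 fell at 60 min, 0 rose and 1 fell at 30 min, and 3 rose and 1 fell from 30 to 60 min. Of all tested genes, 13.3% were called higher and 11.7% lower at 60 min, 4.84% and 3.35% at 30 min, and 8.87% and 7.65% from 30 to 60 min. Dyrk2, a kinase known mainly for phosphorylating p53, rose most: it had 71.4, 73.1 and 72.2 CPM at 0 min, 83.7, 78.4 and 78.7 CPM at 30 min, and 135, 121 and 130 CPM at 60 min. Its log2 change was 0.83 at 60 min (SE 0.044, adjusted p = 3.49e-09) and 0.68 from 30 to 60 min (adjusted p = 1.3e-07). Dyrk1b, a related kinase, averaged 6.18 ± 0.15 CPM at 60 min and 4.46 ± 0.338 CPM at 0 min (log2 change 0.47, adjusted p = 0.00367). The list's median at 60 min was 0.04. With library totals as the only scaling 2 genes of the list rose and 6 fell at 60 min, where 1313 of all genes rose and 3048 fell.

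SR-related proteins carry RS-rich stretches without the SR domain layout. Of 31 tested, 7 rose and 2 fell at 60 min, 1 rose and 4 fell at 30 min, and 7 rose and 0 fell from 30 to 60 min. The shares of all genes called higher and lower were 13.3% and 11.7% at 60 min, 4.84% and 3.35% at 30 min, and 8.87% and 7.65% from 30 to 60 min. Ccnl1, cyclin L1, which partners the kinase CDK11 and localizes to speckles, had 72.4, 80.1 and 73.9 CPM at 0 min, 121, 105 and 106 CPM at 30 min, and 145, 137 and 135 CPM at 60 min. The 3 times did not overlap. Ccnl1 rose by a log2 change of 0.55 at 30 min (adjusted p = 1.25e-05), 0.88 at 60 min (adjusted p = 2.49e-08) and 0.33 from 30 to 60 min (adjusted p = 0.000702). Rsrp1 fell at both LPS times (log2 change -0.23 at 30 min and -0.35 at 60 min, adjusted p = 0.00924 and 0.000104). Pnisr fell at 30 min (-0.22, adjusted p = 0.013), a call that needed 0 min replicate 1 and 30 min replicate 3 (0.0655 and 0.0638 without them). Srek1 rose at 60 min (0.29, adjusted p = 0.000373) and from 30 to 60 min (0.24, adjusted p = 0.00245). Rsrc2 rose from 30 to 60 min (0.20, adjusted p = 0.0248), a call lost in 5 settings (0.0572 to 0.115).

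Proteins of the hnRNP class often oppose SR proteins at exons. Of 29 tested, 6 rose and 0 fell at 60 min, against 13.3% and 11.7% of all genes, and 1 rose and 0 fell at 30 min, against 4.84% and 3.35%. For 60 min against 30 min edgeR called 0, against 8.87% higher and 7.65% lower of all genes (6 higher and 0 lower at an unadjusted p under 0.05), DESeq2 called 1 higher and limma-voom 0. Pcbp1, which binds C-rich RNA, rose at 30 min (log2 change 0.17, adjusted p = 0.0178) and at 60 min (0.22, adjusted p = 0.000943). The call at 30 min was lost with library totals as the only scaling and without 0 min replicate 1 or 30 min replicate 2 or 3 (0.0532 to 0.0889). Ptbp2 rose at 60 min (0.21, adjusted p = 0.00478). Hnrnpa0, which binds AU-rich elements, was called higher at 60 min (0.20, adjusted p = 0.0485), a call lost in 12 of the 17 alternatives.

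Of 24 other splicing regulators tested, 7 were called higher and 5 lower at 60 min, 1 higher and 2 lower at 30 min, and 5 higher and 1 lower from 30 to 60 min. All genes likewise went both ways, with 13.3% higher and 11.7% lower at 60 min, 4.84% and 3.35% at 30 min, and 8.87% and 7.65% from 30 to 60 min. Cirbp, a cold-inducible RNA-binding protein of low level here, averaged 5.9 ± 0.48 CPM at 60 min and 5.71 ± 0.538 CPM at 30 min, against 3.84 ± 0.404 CPM at 0 min. Its log2 change was 0.57 at 30 min (adjusted p = 0.00761) and 0.62 at 60 min (adjusted p = 0.00138). Rbm7, known chiefly as a subunit of the nuclear exosome targeting complex, rose at 60 min (0.36, adjusted p = 1.44e-05) and from 30 to 60 min (0.22, adjusted p = 0.00163). Mbnl2, a muscleblind splicing regulator, rose at 60 min (0.25, adjusted p = 0.000185) and from 30 to 60 min (0.18, adjusted p = 0.0046), and Sf1, the branch point binding protein, rose from 30 to 60 min (0.16, adjusted p = 0.00594). At 30 min Rbm5 fell (-0.27, adjusted p = 0.000456), and so did Tia1 (-0.26, adjusted p = 0.0143), though the Tia1 call did not survive the loss of 0 min replicate 2 or 3 or of 30 min replicate 2 (0.06 to 0.0651).

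Of 40 spliceosome core genes 5 rose and 1 fell at 60 min, with a median log2 change of 0.03, where 13.3% of all genes were called higher and 11.7% lower. These counts turned on the scaling: with library totals as the only scaling 0 rose and 7 fell. Of all genes, 1313 rose and 3048 fell in that setting. With a library left out 2 to 6 core genes rose and 0 to 2 fell. For these core genes edgeR, DESeq2 and limma-voom called 0 at 30 min and 0 from 30 to 60 min, against 8.18% and 16.5% of all genes called in either direction by edgeR (edgeR at an unadjusted p under 0.05: 3 higher and 3 lower, and 2 higher and 0 lower). Snrpb, Snrpd2 and Snrpd3 encode Sm proteins of the small nuclear ribonucleoproteins, and at 60 min they changed by 0.16, 0.16 and -0.15 (adjusted p = 0.011, 0.0106 and 0.0432). Each of these 3 calls was lost in some alternatives. Of 16 genes of the exon junction complex and nonsense-mediated decay, 2 rose and 3 fell at 60 min (13.3% and 11.7% of all genes) and 1 rose and 1 fell from 30 to 60 min (8.87% and 7.65% of all genes). With library totals as the only scaling 0 of the 16 rose and 7 fell at 60 min. At 30 min edgeR, DESeq2 and limma-voom called 0 of the 16 (0 higher and 1 lower at an unadjusted p under 0.05). Of all genes, edgeR called 4.84% higher and 3.35% lower at 30 min. Upf2, a core decay factor, averaged 67.7 ± 3.34 CPM at 60 min and 80.0 ± 1.68 CPM at 0 min (log2 change -0.24, adjusted p = 0.000833). Its partner Upf3b fell by 0.22 (adjusted p = 0.00809), and Smg8, a regulator of the decay kinase Smg1, rose by 0.18 (adjusted p = 0.00543), lost with library totals as the only scaling (0.0801). From 30 to 60 min Upf2 fell by 0.16 (adjusted p = 0.018) and Smg8 rose by 0.15 (adjusted p = 0.0222), and both calls were lost in some alternatives.

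**Figure D5:**
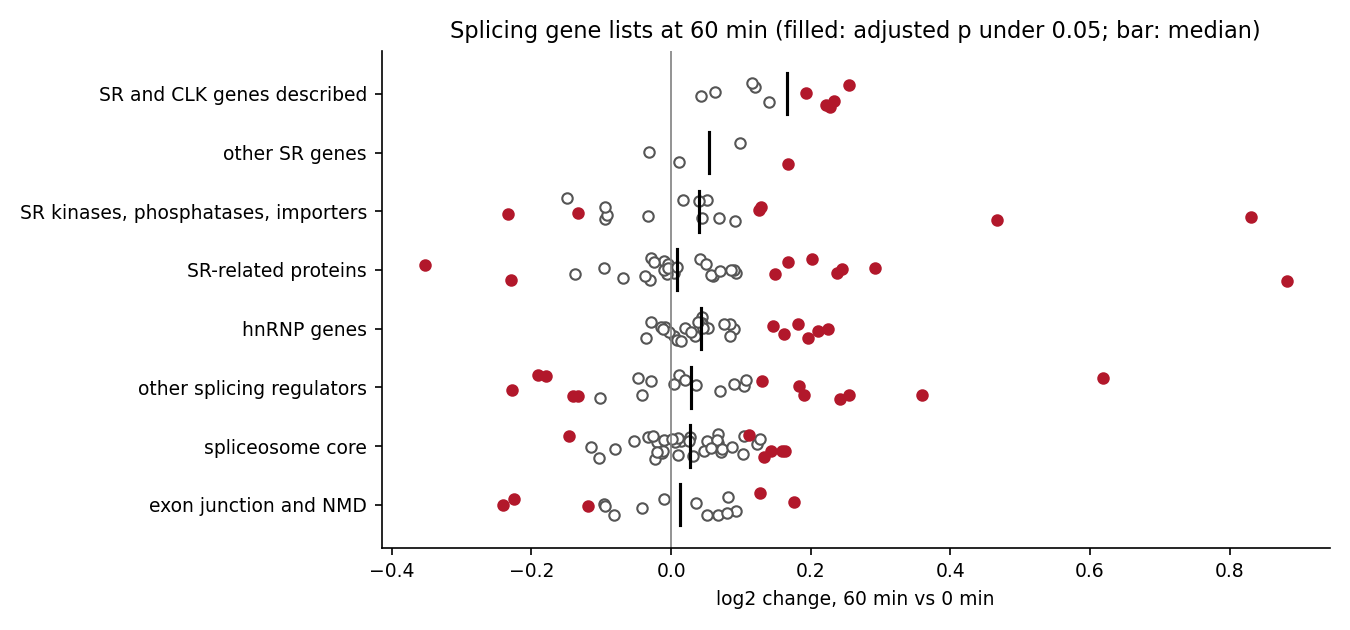
Fitted log2 change at 60 min against 0 min of every tested gene in the 10 SR and CLK genes and 7 further splicing lists; filled points passed an adjusted p under 0.05 and bars are medians. The median of the 10 genes is 0.17, those of the other lists lie between 0.008 and 0.06, and the largest single changes belong to Ccnl1 (0.88) and Dyrk2 (0.83). The 10 genes and the lists were chosen with earlier results of these data known.

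In the authors' deposited table for 60 min over 0 min, 6 of the 10 genes were higher at an adjusted p under 0.05, against 10.0% of the 14897 genes with an adjusted p there, and 10 of 10 had a positive log2 change. In the authors' deposited table these 6 were Clk1 (adjusted p = 5.6e-05), Tra2a (0.000669), Srsf6 (0.000771), Srsf7 (0.00173), Clk4 (0.00276) and Srsf2 (0.0442). None of the 10 passed 0.05 at 30 min in the authors' deposited table, against 6.07% of its 14456 genes in either direction, and the lowest adjusted p was 0.205, for Srsf3. The authors' deposited table also had Clk2 lower at 30 min (log2 change -0.29, adjusted p = 0.000107) and at 60 min (-0.23, adjusted p = 0.00173). For Clk3 at 60 min, called higher here, the authors' deposited table had a log2 change of 0.13 with an adjusted p = 0.119.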

How the data were processed

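RNA was measured in 9 libraries, 3 per time, and grouping follows the labels. The submitters' processing notes name RSEM 1.3.1, STAR 2.7.0f, Picard 2.18.26, cutadapt 1.18, bcl2fastq 2.20, DESeq2 and the build mm10. Their settings, strand handling and annotation are not stated in the labels or headers. The deposited expected counts per gene were estimated by the authors with RSEM and not normalized; between 5.04% and 5.32% of a library's values were fractional, and all were rounded. RSEM shares reads among matching genes, so values of genes with near copies are uncertain. The authors' deposited tables give each gene's log2 fold change, its test statistic (a score) and its raw and adjusted p-values, per the file headers.

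Identifiers were matched to GENCODE M21, and 231 of 232 listed symbols were found; Rbm23 was not analysed here. The 10 genes and the lists were chosen with earlier results of these data known. Genes passing edgeR's filterByExpr entered a quasi-likelihood fit (edgeR 4.0.16, R 4.3.3) of all 9 libraries with time as the only term, adjusted over 14246 genes (spread between replicates, as a biological coefficient of variation, 5.2%). Alternatives were DESeq2 1.42.0 (its size factors, and its Wald test), library totals as the only scaling, limma-voom (limma 3.58.1), no filter, a minimum count of 50, only the 6 libraries compared, each library left out in turn, and the replicate number as a block. The scripts were tested on simulated counts. Marker levels use plain totals. All of the 10 genes were named, with all tested other SR genes and Clk2, Clk3, Srpk1 and Srpk2; of each other list, up to 3 called genes with the largest absolute log2 change per comparison, and for likeness the 5 nearest genes, of which 1 is not reported here. Intervals are 95% and come from the fit.

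Only the labels say that libraries of a time are biological replicates, and p-values measure the spread between them, which may be partly technical. Replicate pairs differed by a median chi-square per gene of 0.87 to 1.39, where sampling alone gives 0.455, so none was a copy of another.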

Additional observations from a re-analysis of the deposited data

Results flagged for a closer look

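In 5 of the 10 genes the change at 60 min differed from the change at 30 min by edgeR's test of the difference itself (60 min against 30 min, adjusted over 14246 genes, 3 libraries per time), where 8.87% of all genes were called higher and 16.5% in either direction. The difference in log2 change was 0.2987 for Clk4 (adjusted p = 0.000477), 0.2192 for Tra2a (adjusted p = 0.0198), 0.1778 for Srsf5 (adjusted p = 0.0139), 0.148 for Srsf6 (adjusted p = 0.0335) and 0.1305 for Clk1 (adjusted p = 0.0454). Over the 17 alternatives the adjusted p ran from 1.51e-07 to 0.00411 for Clk4, from 2.21e-06 to 0.0989 for Tra2a, from 0.000126 to 0.074 for Srsf5, from 0.00213 to 0.141 for Srsf6 and from 0.0258 to 0.166 for Clk1. In all 5 genes the 3 libraries at 60 min lay above the 3 at 30 min, which held for 17.1% of all genes. The adjusted p of 0.0454 for Clk1 passed the threshold in 8 of 17 alternatives.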

How the results depend on the processing

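The rises of Clk1 and Clk4 at 60 min, the fall of Clk2 at both times and the rise of Clk4 from 30 to 60 min kept their calls in every alternative run. The count of the 10 genes called higher at 60 min (5) was 3 when library totals alone set the scale, 8 with no filter and 3 to 8 with a library left out. From 30 to 60 min (5) it was 1 with library totals, 3 with the replicate block and 1 to 6 with a library left out. At 30 min (0) it was 0 to 1 with a library left out. Of all genes, those called lower numbered 757 at 30 min with no filter (477 in the main fit) and 290 to 523 with a library left out. With library totals they numbered 3048 lower beside 1313 higher at 60 min (1671 lower and 1891 higher with TMM), 1672 lower beside 1005 higher from 30 to 60 min (1090 and 1263), and 649 lower beside 551 higher at 30 min (477 and 689). That scaling moved the median log2 change of all genes to -0.07 at 60 min and -0.04 from 30 to 60 min. At 60 min it gave 0 spliceosome core genes higher and 7 lower (5 and 1 in the main fit). The exon junction and decay list had 0 higher and 7 lower (2 and 3). For kinases, phosphatases and importers the counts were 2 higher and 6 lower (4 and 2). The hnRNP genes called higher numbered 3 (6), and the SR-related proteins called lower numbered 4 (2). The labels do not say what same-numbered libraries share. Correlations of deviations between times were -0.0637 to 0.00609 for libraries of the same number and -0.0703 to 0.101 for those of other numbers. With the block the calls of Srsf6 and Clk1 from 30 to 60 min and of Hnrnpa0 and Tia1 at 60 min were lost (adjusted p 0.053, 0.0689, 0.0595 and 0.0589). Pnisr from 30 to 60 min was gained (0.0354). The cause of these shifts was not tested. With 3 libraries per time the SE of the log2 change of the 10 genes at 60 min was 0.036 to 0.059.

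Signs turned only for changes that were not called. With library totals these were, at 30 min, Srsf2 (-0.0049), Tra2a (-0.0249), Tra2b (-0.0172) and Srsf10 (-0.0107), and at 60 min Srsf1 (-0.0061), Tra2b (-0.0249) and Srsf4 (-0.0577). From 30 to 60 min they were Srsf1 (-0.0082), Srsf3 (-0.0280), Tra2b (-0.0077), Srsf4 (-0.0222), Srpk1 (-0.0170), Hnrnpa0 (-0.0379), Rbm5 (-0.0043), Snrpb (-0.0123) and Snrpd3 (-0.0332). At 30 min Tra2a was -0.0017 with DESeq2 size factors or its Wald test, -0.0055 with no filter or with 6 libraries, -0.0081 with a minimum count of 50 and -0.0007 with the replicate block. Tra2b was -0.0008 with a minimum count of 50, and Hnrnpa0 from 30 to 60 min was -0.0028 with limma-voom. With a library left out, values at 30 min ran from -0.0197 to 0.0763 for Srsf1, -0.0187 to 0.0868 for Srsf2, -0.0644 to 0.0487 for Tra2a, -0.0110 to 0.0488 for Tra2b, -0.0411 to 0.0125 for Srsf4, -0.0402 to 0.0732 for Srsf10, -0.0310 to 0.0266 for Srsf11 and -0.0165 to 0.0976 for Rsrc2. At 60 min they ran from -0.0180 to 0.0241 for Srsf4 and -0.0705 to 0.0046 for Srsf9. From 30 to 60 min they ran from -0.0003 to 0.0863 for Srsf1, -0.0117 to 0.0555 for Srsf3, -0.0018 to 0.0522 for Srsf4, -0.0471 to 0.0960 for Hnrnpa0, -0.0198 to 0.1152 for Cirbp, -0.0099 to 0.0758 for Snrpb and -0.0375 to 0.0395 for Snrpd3.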
